A study of Mus musculus with 6 samples.

Results

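Retinoic acid is made from vitamin A within tissues, and the 9 genes described here cover its synthesis (Aldh1a1, Aldh1a2, Rdh10), the return of its precursor to retinol (Dhrs3), its breakdown (Cyp26a1, Cyp26b1), its binding in the cytoplasm (Crabp1, Crabp2) and one of its nuclear receptors (Rarb). All 9 were found by symbol among the 23284 genes of the deposited expression table. They were chosen on the difference between the WT and KD values of that table, so the differences of these genes are given as a description and no test was made on them. In E9.5 ventricles of KD embryos, Aldh1a1 was 3.18-fold higher than in WT, Aldh1a2 was 1.99-fold higher, and Cyp26b1 was 2.25-fold lower. Rdh10, Dhrs3, Crabp1, Crabp2 and Rarb lay within 1.5-fold of WT, and Cyp26a1 was close to 0 in both groups.

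The ventricles came from chimeric mouse embryos at E9.5, 3 in the WT group and 3 in the KD group, all labelled C57BL/6. The embryos were made by tetraploid complementation, so that the tissues sequenced here derive from ES cells, and the tetraploid host contributes mainly extraembryonic tissue. The WT embryos came from WT ES cells. In the KD embryos, labelled Tbx5ua -/- and made from edited C57BL/6 J ES cells, both alleles of Tbx5ua, a long non-coding RNA that shares a promoter region with Tbx5, carry polyadenylation signals inserted by CRISPR/Cas9, which stop its transcription early in every cell of the embryo and not only in the heart. The edited ES cells were clonal, and the line from which each sequenced embryo came is not given in the sources used here. Tbx5ua was not analysed here, so the group labels were not checked against the targeted RNA.

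Retinoic acid forms in a pair of oxidation steps. Retinol dehydrogenases such as Rdh10 turn retinol into retinaldehyde, and retinaldehyde dehydrogenases of the Aldh1a family turn retinaldehyde into retinoic acid. The acid enters the nucleus, where it binds receptors of the RAR family, which sit on DNA as dimers with RXR receptors. Enzymes of the Cyp26 family oxidise it for removal, so that its level differs between neighbouring tissues. In the embryonic heart retinoic acid is known for patterning the inflow and outflow poles and for its role in the epicardium, the outer cell layer of the heart.

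RAR and RXR dimers recognise direct repeats of a 6-base half-site, and some genes of the pathway carry such a repeat beside their own start. The half-sites AGGTCA or GGGTCA or AGTTCA or GGTTCA were searched on both strands in RefSeq promoters of GRCm38.p6, from 250 bases before to 50 bases after each start. A promoter was at hand for 7 of the 9 genes, all except Rdh10 and Crabp2. Repeats with 5 bases between the half-sites were present in 2 of these 7 genes, Rarb and Cyp26a1, and in 0.0421% of 19013 promoters of genes in the table. Both sites are shown because they are the only repeats of this spacing found among the members, with the half-sites in capitals.
Rarb, minus strand, chr14:16575513-16575529: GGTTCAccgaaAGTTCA
Cyp26a1, minus strand, chr19:37697776-37697792: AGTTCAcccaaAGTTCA

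The site of Rarb lies on the strand of the gene, from 53 to 37 bases before its RefSeq start, which itself lies 266 bases outside the row of Rarb in the table. The site of Cyp26a1 lies on the strand opposite the gene, from 32 to 16 bases before its start. Repeats with 2 or 1 bases between were found in 0 of the 7 genes, against 0.0842% and 0.184% of all promoters. A single half-site, which includes those of the repeats, was present in 3 of the 7 genes and in 40.9% of all promoters. These matches describe letters in a window and do not show that a receptor was bound.

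The 100 bases before the starts of Aldh1a1, Aldh1a2 and Cyp26a1 are shown as the upstream sequence of the synthesis genes that differed between the groups and of the breakdown gene that carries a repeat. They are from GRCm38.p6, read along each gene (plus strand), with half-sites of either strand in capitals.
Aldh1a1, chr19:20601868-20601967: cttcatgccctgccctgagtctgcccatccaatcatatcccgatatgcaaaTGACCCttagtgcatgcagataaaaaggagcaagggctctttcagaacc
Aldh1a2, chr9:71215689-71215788: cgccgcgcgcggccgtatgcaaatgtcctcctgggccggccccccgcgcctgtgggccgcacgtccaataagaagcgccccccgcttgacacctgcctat
Cyp26a1, chr19:37697708-37697807: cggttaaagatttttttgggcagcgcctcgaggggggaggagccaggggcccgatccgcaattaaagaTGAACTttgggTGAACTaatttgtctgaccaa

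In the window of Aldh1a1 the single half-site GGGTCA lies on the opposite strand, from 49 to 44 bases before the start. The windows of both Aldh1a genes also hold the octamer ATGCAAAT on the strand of the gene, from 56 to 49 bases before the start in Aldh1a1, where its last base is shared with the half-site, and from 84 to 77 bases before the start in Aldh1a2. The octamer was noticed on reading the windows, and on both strands 1.62% of the 19013 promoters hold it, as do 2 of the 7 genes. RefSeq lists a second start of Aldh1a1 that lies 109399 bases from the start of its row in the table, and its promoter held neither the repeats nor a half-site. The promoters of Cyp26b1, Crabp1, Dhrs3 and Aldh1a2 held no half-site.

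Levels are given in FPKM, a fragment count divided by the length of the transcript and by the number of mapped fragments, so that genes of different length can be set side by side. Each gene has 1 FPKM value per group, and single embryos have no column. No SD can therefore be given, and whether the embryos of the groups overlapped was not tested. Read counts and totals of the libraries are not part of the table, and the sequencing depth behind a value is thus unknown. Of the 23284 genes, 5899 were listed at 0 in both groups and 2 had no value because too many reads mapped to them. A log2 difference here is log2 of KD over WT after 0.1 FPKM was added to both values. Over the 11366 genes with a mean of both groups of at least 1 FPKM its median was 0.004. Of these genes 57 were listed at 0 in one group, which can be a failed estimate. With the limit of 1 FPKM and the added 0.1 FPKM, all 57 necessarily lie beyond 3 on the log2 scale.

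The order of the levels in WT ran from Crabp1 with 10.6 FPKM through Crabp2 with 9.76 FPKM, Rarb with 6.42 FPKM, Aldh1a1 with 3.25 FPKM, Cyp26b1 with 2.30 FPKM, Dhrs3 with 1.42 FPKM, Rdh10 with 1.17 FPKM and Aldh1a2 with 0.872 FPKM to Cyp26a1 with 0.0784 FPKM. In KD Aldh1a1 stood at rank 2 instead of 4, ahead of Crabp2 and Rarb, Aldh1a2 at rank 5 instead of 8, and Cyp26b1 at rank 8 instead of 5. The ranks of Crabp1, Dhrs3, Rdh10 and Cyp26a1 were the same in both groups. Without a spread between embryos, neighbours in either order cannot be said to differ.

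**Figure D1:**
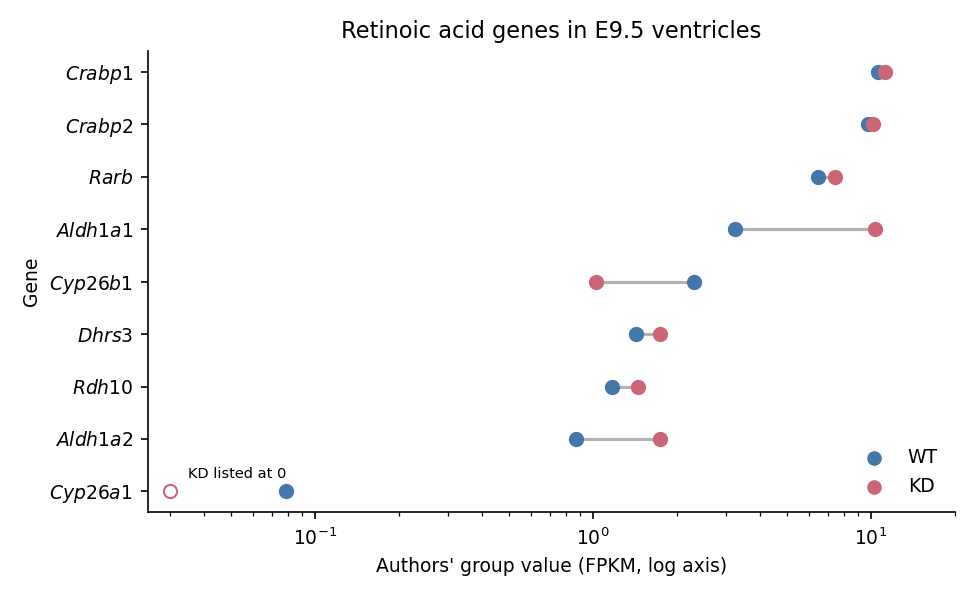
Authors' group values in FPKM (log axis) of the 9 genes, blue for WT and red for KD, with a grey line joining the groups of a gene. Each point is 1 value for 3 embryos, without an error bar. Aldh1a1 and Aldh1a2 lie to the right in KD and Cyp26b1 to the left, while the points of Crabp1 and Crabp2 nearly coincide. The open circle marks Cyp26a1 in KD, which is listed at 0 and has no place on a log axis.

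Aldh1a1, a retinaldehyde dehydrogenase, had 3.25 FPKM in WT against 10.3 FPKM in KD, a log2 difference of 1.64. Its row spans chromosome 19 from 20601982 to 20643462 on the plus strand (ENSMUSG00000053279.8, build mm10). It was higher than 62.2% of genes with a value in WT and than 75.8% in KD. Its longest coding transcript in GENCODE has 2358 bases in 16 exons. Aldh1a7, a close relative of Aldh1a1 that starts 49490 bases after its row and was looked up for that reason, had 0.261 FPKM in WT against 0.319 FPKM in KD. How reads shared by such relatives were assigned is not given in the sources used here. In RNA from whole ventricles, more cells that express a gene and more RNA in each cell cannot be told apart.

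Aldh1a2, the main retinoic acid synthesising enzyme of the midgestation embryo, was the lower of the pair. It had 0.872 FPKM in WT against 1.74 FPKM in KD, a log2 difference of 0.92, on chromosome 9 from 71215789 to 71296243 on the plus strand. Its WT value lies under 1 FPKM, so its mean of 1.30 FPKM passes the limit of 1 FPKM only through the KD group. A processed pseudogene, Gm48124, overlaps 412 bases of its row on the other strand. The third enzyme of the family, Aldh1a3, had 0.244 FPKM in WT against 0.179 FPKM in KD. The level of Aldh1a1 was 3.73 times that of Aldh1a2 in WT and 5.94 times in KD, and Aldh1a1 made up 74.4% of the summed level of the 3 enzymes in WT and 84.3% in KD. That sum was 4.37 FPKM in WT against 12.2 FPKM in KD.

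The enzymes that supply and remove retinaldehyde differed less. Rdh10, which oxidises retinol to retinaldehyde, had 1.17 FPKM in WT against 1.45 FPKM in KD, a log2 difference of 0.28. Its row lies on chromosome 1 from 16105882 to 16132550, 1448 bases from that of the ribosomal protein gene Rpl7, whose values of 1687 and 1782 FPKM are much higher. Dhrs3, which reduces retinaldehyde back to retinol, had 1.42 FPKM in WT against 1.74 FPKM in KD, a log2 difference of 0.27, on chromosome 4 from 144892827 to 144927645. Both genes, acting in opposite directions on the same pair of compounds, were thus slightly higher in KD by nearly the same ratio, 1.23 for Rdh10 and 1.22 for Dhrs3.

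Of the Cyp26 enzymes, Cyp26b1 made up nearly all of the level. It had 2.30 FPKM in WT against 1.02 FPKM in KD, a log2 difference of -1.10, on chromosome 6 from 84571414 to 84593908 on the minus strand. Its longest coding transcript has 4495 bases in 6 exons. Its nearest row in the table, Exoc6b, 24577 bases away, had 4.41 FPKM in WT against 3.12 FPKM in KD. Cyp26a1, whose row is chr19:37697808-37701536, had 0.0784 FPKM in WT and was listed at 0 in KD, so no fold is given. It had too few reads for the authors' test and did not pass the limit of 1 FPKM. Cyp26c1, its neighbour at 4500 bases, was listed at 0 in WT and had 0.0178 FPKM in KD. Cyp26b1 was 96.7% of the summed level of the 3 enzymes in WT and 98.3% in KD, and that sum was 2.38 FPKM in WT against 1.04 FPKM in KD. The summed Aldh1a level was 1.83 times the summed Cyp26 level in WT and 11.7 times in KD. Both sums consist mainly of a gene chosen on this contrast, Aldh1a1 or Cyp26b1, and the Cyp26 sum in KD is close to 1 FPKM. Nothing is therefore read from the difference between these ratios. These are ratios of RNA levels and say nothing of enzyme activity or of retinoic acid itself, which was not measured.

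The binding proteins had the highest levels of the 9 genes in WT and were close to each other in both groups. Crabp1 and Crabp2 are small cytoplasmic proteins, of which Crabp2 is known to carry retinoic acid to its receptors. Crabp1, whose row is chr9:54764808-54773109, had 10.6 FPKM in WT against 11.2 FPKM in KD, a log2 difference of 0.08. Crabp2, whose row is chr3:87948693-87953372, had 9.76 FPKM in WT against 10.2 FPKM in KD, a log2 difference of 0.06. Crabp1 was 1.08 times Crabp2 in WT and 1.10 times in KD. Crabp1 is well known from neural crest cells, and the neural crest markers listed here were low in these ventricles. Of the 6 listed markers 0 reached a mean of 1 FPKM, and Foxd3 and Dlx2 were listed at 0 in both groups. The summed level of the 6 was 0.509 FPKM in WT against 0.275 FPKM in KD. The part of neural crest cells in the value of Crabp1 was not tested.

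Rarb, the retinoic acid receptor whose promoter repeat is shown above, had 6.42 FPKM in WT against 7.42 FPKM in KD, a log2 difference of 0.21. Its row lies on chromosome 14 from 16430840 to 16575210 on the minus strand. In GENCODE the opposite-strand gene Top2b overlaps 4623 bases of that row, and Top2b had 14.7 FPKM in WT against 14.9 FPKM in KD. Smart-Seq2 libraries do not mark the strand, so reads from the overlap cannot be told apart by strand. Rarb held 35.5% of the summed level of the 3 RAR genes in WT and 33.4% in KD. Rara was the highest of the family, with 10.5 FPKM in WT against 13.5 FPKM in KD, and Rarg the lowest, with 1.17 and 1.29 FPKM. The 3 RXR partners had a summed level of 12.7 FPKM in WT against 11.1 FPKM in KD, of which Rxrb held 60.6% and 61.2%. All RAR genes were slightly higher and all RXR genes slightly lower in KD, every one within 1.5-fold.

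**Figure D2:**
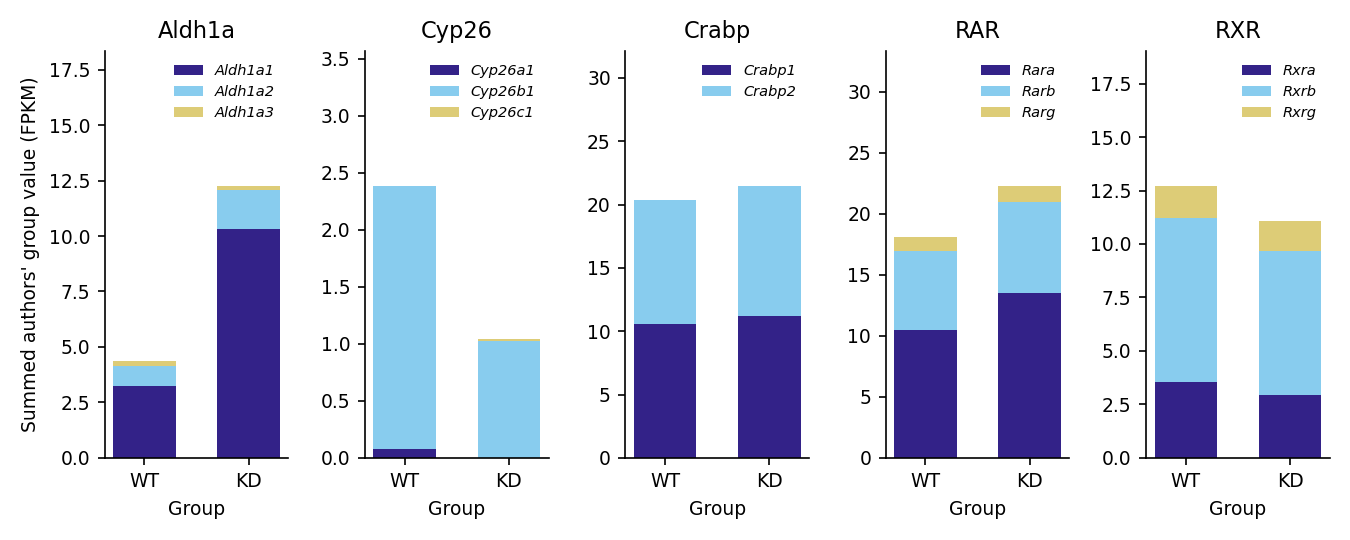
Stacked authors' group values in FPKM of the Aldh1a, Cyp26, Crabp, RAR and RXR genes in WT and KD, each panel with its own axis from 0. Aldh1a1 (dark) accounts for most of the taller KD column of Aldh1a, Cyp26b1 for nearly all of both Cyp26 columns, and the Crabp, RAR and RXR columns are of similar height in both groups.

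Of the 9 genes 8 passed the limit of 1 FPKM, and 2 of these 8 differed by at least 2-fold, Aldh1a1 higher and Cyp26b1 lower in KD. Among all 11366 genes past the limit 2.01% differed by at least 2-fold, 1.15% higher and 0.853% lower. Without the genes that share a locus in the table, a setting added after the data were seen, 84 of 9212 genes were higher and 41 lower by at least 2-fold, and the share of higher among them went from 57.5% to 67.2%. At 1.5-fold, 3 of the 8 genes were past the limit, with Aldh1a2 added among the higher, against 6.48% of all genes, 3.79% higher and 2.68% lower. Because the genes were chosen on this contrast, nothing is read from these counts. Nearest to the 2-fold limit lay Cyp26b1, just past it with -1.10, and Aldh1a2, just short of it with 0.92. The share of genes past 2-fold was larger at low levels, which matters for these genes. Genes listed at 0 in one group are counted in these shares. From 1 to under 2 FPKM, where Aldh1a2, Cyp26b1, Rdh10 and Dhrs3 lie by their means, 5.63% of genes differed by at least 2-fold. From 2 to under 5 FPKM it was 2.25%, and from 5 to under 20 FPKM, where Aldh1a1, Rarb, Crabp1 and Crabp2 lie, it was 1.15%. With 1 FPKM added in place of 0.1 FPKM, Cyp26b1 had a log2 difference of -0.71 and was no longer past 2-fold, Aldh1a2 had 0.55 and was no longer past 1.5-fold, and Aldh1a1 had 1.41.

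**Figure D3:**
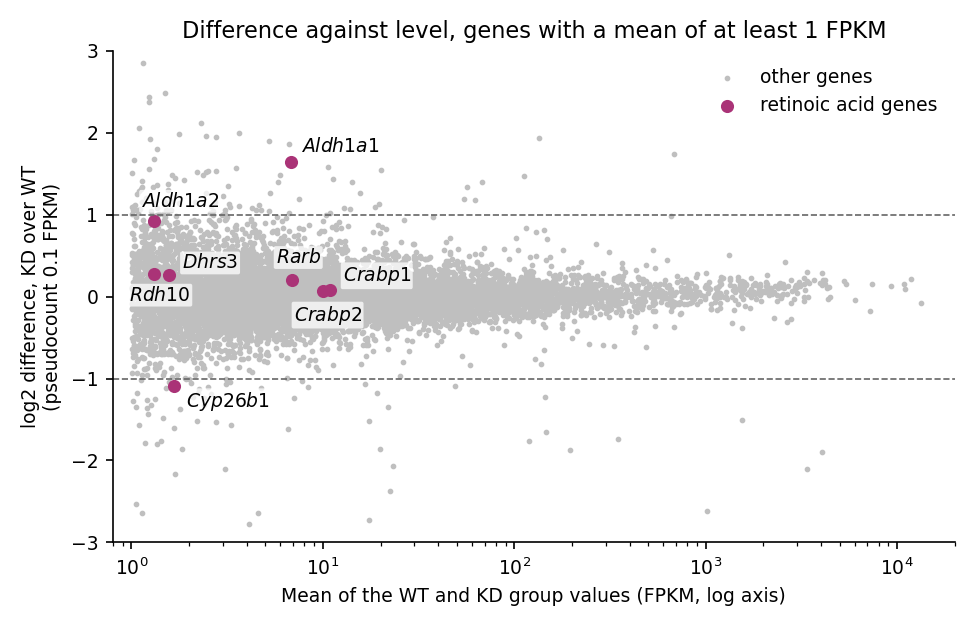
Log2 difference of KD over WT, after 0.1 FPKM was added, against the mean of both group values in FPKM (log axis) for genes with a mean of at least 1 FPKM. Grey points are other genes, purple points the 8 genes described here that pass the limit, and dashed lines mark 2-fold. Aldh1a1 lies above the upper line, Cyp26b1 just below the lower one and Aldh1a2 just under the upper one. The axis ends at 3 in both directions and leaves out 63 genes, of which 57 are listed at 0 in one group.

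A wider list of 51 genes of the pathway, the 9 included, was described in the same way. All 51 were in the table, Bco1 under its older symbol, and 31 had a mean of at least 1 FPKM. Of the other 42 genes 23 passed, and their median log2 difference was 0.08, against 0.004 for all genes past the limit. Among these 23 genes 3 were higher in KD by at least 1.5-fold, 0 were lower by that much, and 20 lay within 1.5-fold. Over all genes past the limit 3.79% were higher and 2.68% lower by at least 1.5-fold. Rbp4 and Nr2f2 were among the 3 higher genes of the list.

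Rbp4, the retinol carrier of blood that is made mainly by liver and yolk sac, had 1.12 FPKM in WT against 2.05 FPKM in KD, a log2 difference of 0.82. The markers of hepatic and yolk sac tissue were near 0, with a summed level of 0.613 FPKM in WT against 1.38 FPKM in KD over 5 genes, Alb at 0 in both groups, and Afp at 0.00717 and 0.294 FPKM. Their part in the value of Rbp4 was not tested. Stra6, the membrane receptor that takes up retinol from Rbp4, had 0.650 FPKM in WT against 0.324 FPKM in KD, both under the limit of 1 FPKM.

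The remaining enzymes of retinol oxidation were led by Adh5, a dehydrogenase present in most tissues, with 171 FPKM in WT against 163 FPKM in KD. All 7 genes of retinol and retinaldehyde conversion that passed the limit lay within 1.5-fold, Rdh10 and Dhrs3 among them. The same held for the 3 binding proteins, where Fabp5 had 186 FPKM in WT against 197 FPKM in KD, for the 6 receptors that passed and for the 6 cofactors of the receptors.

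Genes known to respond to retinoic acid gave no common direction. Nr2f2, a nuclear receptor of atrial and venous cells that responds to retinoic acid, had 2.01 FPKM in WT against 4.15 FPKM in KD, a log2 difference of 1.01, and shares its locus in the table with another row. Its relative Nr2f1 had 0.552 and 1.07 FPKM, with a mean under the limit, and also shares its locus. Tgm2, a transglutaminase that retinoic acid induces in many cells, had 113 FPKM in WT against 119.9 FPKM in KD. Meis1 had 18.5 and 21.3 FPKM, and Meis2 12.5 and 11.3 FPKM. Hoxb1, which carries retinoic acid response elements of its own, had 0.0542 FPKM in WT and was listed at 0 in KD. With Rarb within 1.5-fold and Cyp26a1 close to 0 in both groups, 1 of the 4 listed response genes that passed, Nr2f2, was past 1.5-fold. Over all genes past the limit 6.48% were past 1.5-fold in either direction.

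**Figure D4:**
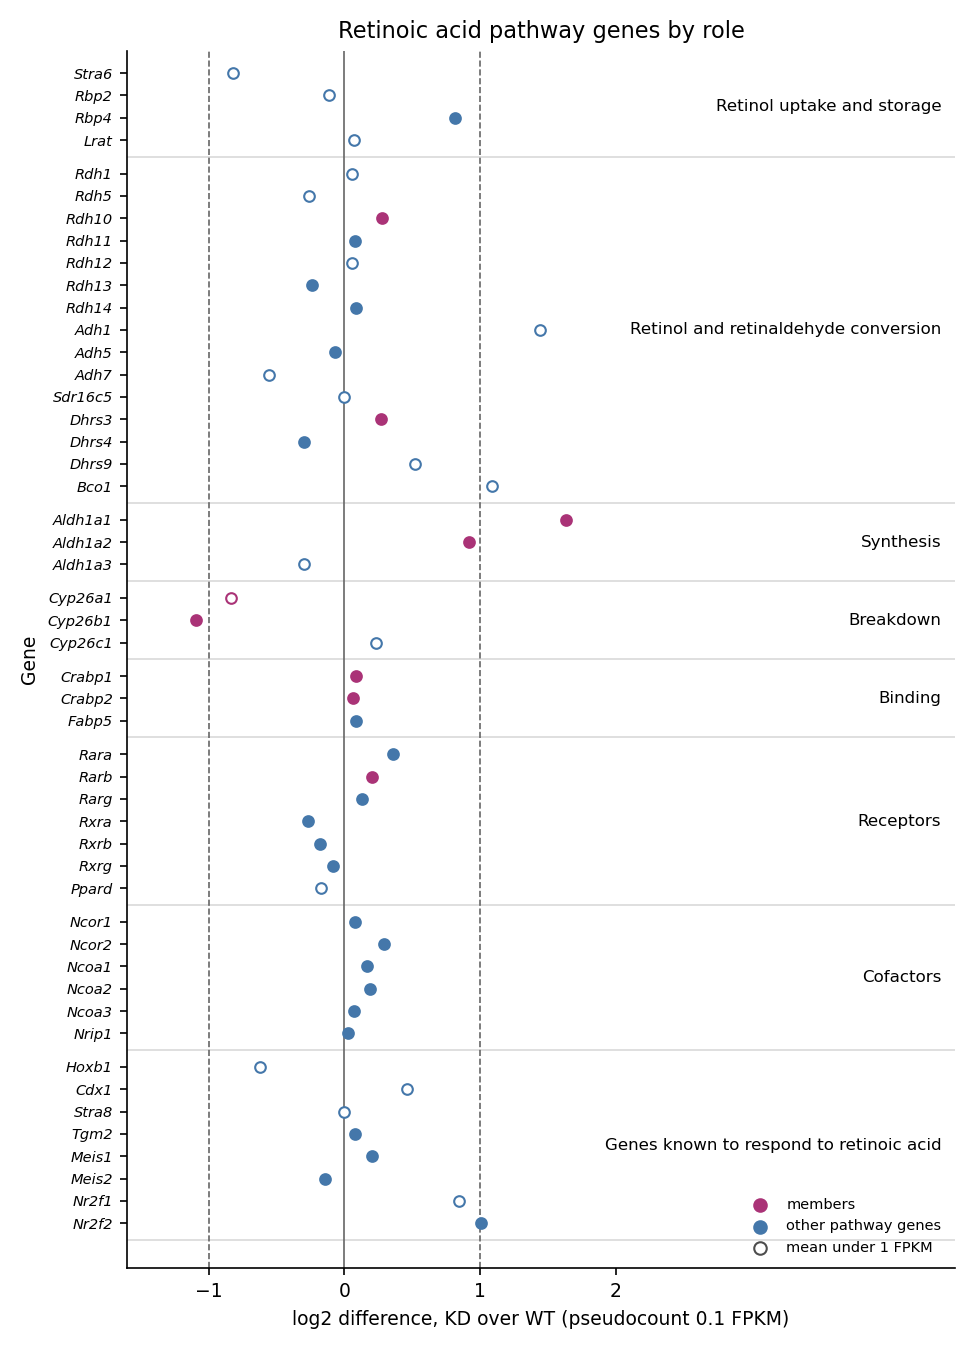
Log2 difference of KD over WT for 49 genes of the pathway list, after 0.1 FPKM was added, grouped by role, with dashed lines at 2-fold. Purple marks the 9 genes described here and blue the others, and open circles have a mean under 1 FPKM, including genes listed at 0 in a group, whose place depends on the added 0.1 FPKM. Filled points of conversion, binding, receptors and cofactors lie near 0, while those of synthesis and of Rbp4 lie to the right and Cyp26b1 to the left.

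Ventricles at this stage hold several cell types, and markers of some of them differed along with the synthesis and breakdown genes. Ventricular cardiomyocyte markers were abundant in both groups, with Myl2 at 10924.4 FPKM in WT against 12701.5 FPKM in KD, and all 6 lay within 1.5-fold, as did the 8 endocardial markers. Of 9 epicardial markers 9 were higher in KD and none was at 0. By at least 1.5-fold 6 of the 7 that passed the limit were higher, against 3.79% of all genes past it. Wt1, with 13.8 and 19.2 FPKM, passed and lay within 1.5-fold. Msln, with 0.0483 and 0.0683 FPKM, did not pass. Bnc1, with 0.439 and 1.62 FPKM, passed only through the KD group. The epicardial markers summed to 51.5 FPKM in WT against 107 FPKM in KD. Their log2 differences ran from 0.182 for Msln to 1.67 for Bnc1, with a median of 1.20. Aldh1a2 is itself known from the epicardium. Of 5 outflow and anterior second heart field markers 5 were lower in KD and none was at 0, with a summed level of 12.6 FPKM in WT against 8.64 FPKM in KD. Within that list Fgf8 had 2.45 and 1.41 FPKM and Tdgf1 2.19 and 0.720 FPKM, levels in the range of Cyp26b1. The other 2 genes that passed lay within 1.5-fold, Fgf10 with 1.97 and 1.67 FPKM and Sema3c with 5.38 and 4.47 FPKM. Over all genes past the limit 2.68% were lower by at least 1.5-fold. Tdgf1 passed only through the WT group, and Isl1, with 0.559 and 0.361 FPKM, is counted as lower in the outflow, posterior second heart field and sinus venosus lists alike. The atrial list, which also holds Nr2f1 and Nr2f2, summed to 10.5 FPKM in WT against 14.1 FPKM in KD with 5 of 6 genes higher. Only 2 of the 6 passed the limit, and 1 of these, Nr2f2, was past 1.5-fold, against 3.79% higher over all genes. Stard10, the largest part of the sum, had 6.58 and 6.95 FPKM, and Kcnj3 had 0.758 and 0.811 FPKM. Sln, a defining atrial gene, was listed at 0 in both groups. The sinus venosus list, which shares Tbx18 with the epicardial one, was mixed, with 2 of 5 genes higher. Markers of the posterior second heart field, a site of Aldh1a2 in the embryo, summed to 21.9 FPKM in WT against 13.8 FPKM in KD, nearly all of it from Wnt2 with 20.9 and 12.7 FPKM, the only 1 of the 5 genes to pass the limit. Of this list 4 genes were lower in KD and 1 was higher, Osr1 with 0.233 and 0.673 FPKM. The 4 foregut endoderm markers summed to 0.341 FPKM in WT against 0.302 FPKM in KD, with Foxa1 and Shh at 0, and the 3 somite markers, a tissue rich in Aldh1a2, had a summed level of 0.250 FPKM in WT against 0.341 FPKM in KD. The part of epicardial, outflow, atrial and posterior second heart field cells in the values of Aldh1a1, Aldh1a2 and Cyp26b1 was not tested.

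**Figure D5:**
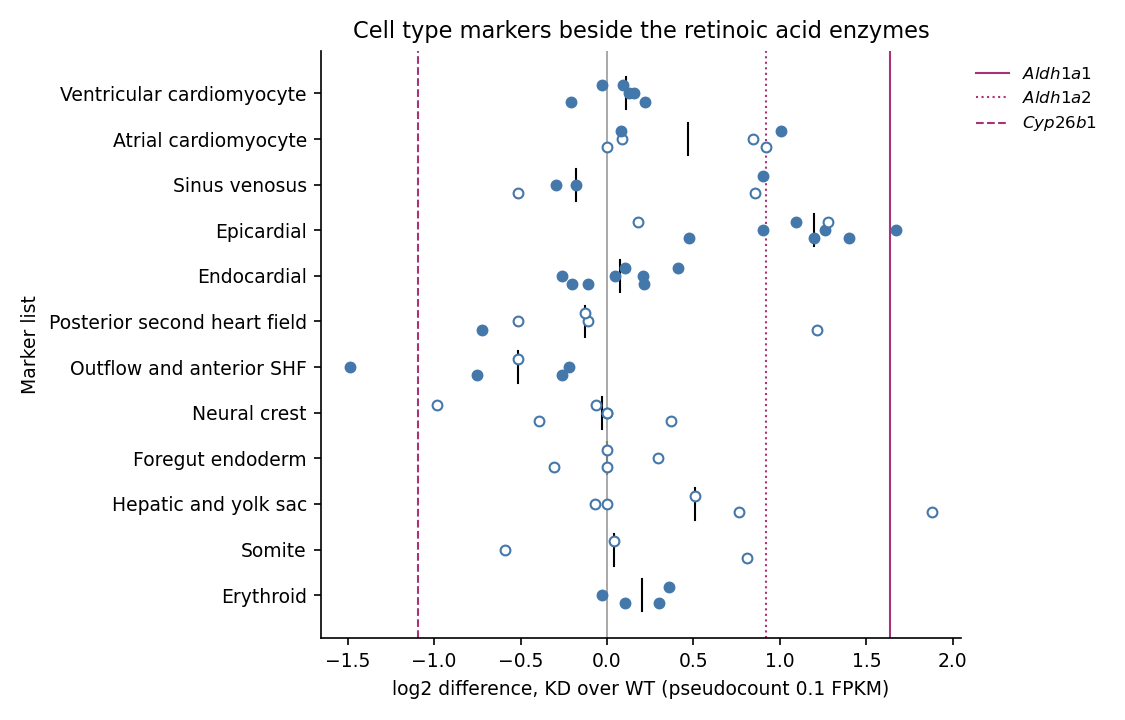
Log2 difference of KD over WT, after 0.1 FPKM was added, of the markers of 12 cell types, with open circles for a mean under 1 FPKM and a black bar at each list's median. The vertical lines mark Aldh1a1 (1.64), Aldh1a2 (0.92) and Cyp26b1 (-1.10). Epicardial markers lie to the right of 0, from 0.182 for Msln and 0.475 for Wt1 to 1.67 for Bnc1. Outflow markers lie to the left of 0. Ventricular cardiomyocyte, endocardial and erythroid markers lie near 0.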

How the data were processed

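RNA-seq libraries of E9.5 ventricles from 3 WT and 3 KD embryos were made with Smart-Seq2 and read single-end. The submitters' processing notes name TopHat, Bowtie2 and Cuffdiff without versions, and build mm10. The deposited table holds FPKM values computed by the authors with Cuffdiff, 1 for each group, the KD group under the name KO. Its columns of log2 fold change, test statistic, p-value and q-value hold the authors' own comparison and were not used. A column for single embryos was not at hand, so the planned fit over embryos was not made. Here the log2 difference is log2 of (KD + 0.1) over (WT + 0.1), and genes with a mean of both groups of at least 1 FPKM were kept. Differences of at least 2-fold were counted, with 1.5-fold, pseudocounts of 1 and 0, other scalings and other limits as alternatives. No test was made, since a group has 1 value and the genes were chosen on this contrast. The members and lists were chosen with earlier results of these data known.

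Other genes were named when they belong to the pathway list, have a mean of at least 1 FPKM and lie past 1.5-fold, when they lie within 5000 bases of a member, or when they mark a cell type set beside a result. Further genes were named after their values were seen. Some genes of the pathway list are counted but not reported here by name. Starts in the table count from 0 and are given with 1 added. Annotation was taken from GENCODE M21 (GRCm38) and promoters from RefSeq (GRCm38.p6), matched by symbol. Proteins were not compared, because no protein sequences were used here. The counting was tested on simulated data, with known changes planted only in genes above the limit of 1 FPKM in WT. That check does not cover genes close to the limit or the spread between embryos. Python 3.11.15, NumPy 2.4.6, pandas 2.3.3 and Matplotlib 3.10.9 were used.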

Additional observations from a re-analysis of the deposited data

How the results depend on the processing

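No paired analysis was possible because each group has 1 value for its embryos, and for that reason leaving out each embryo in turn and a fit with the replicate number as a block were not run. With 1 FPKM added in place of 0.1, the members lower past 2-fold went from 1 to 0, the genes higher past 2-fold from 131 to 72, and the pathway genes from 2 to 1 higher and from 1 to 0 lower. With a mean of at least 5 FPKM there were 0 members lower, 51 genes higher and 49 lower, and 1 pathway gene higher and 0 lower, since only 4 members and 7704 genes remained. Without a limit on low values there were 650 genes higher and 461 lower, and 4 pathway genes higher. At 1.5-fold there were 2 members higher, 431 genes higher and 305 lower, and 5 pathway genes higher. With each group scaled to the same sum of FPKM, and without rows that share a locus, 1 pathway gene was higher, since Nr2f2 was just short of 2-fold in the first and is left out in the second. Over all genes, leaving out rows that share a locus, chosen after seeing the data, gave 84 genes higher and 41 lower of 9212. The log2 differences of Aldh1a1, Aldh1a2, Cyp26b1, Rdh10, Dhrs3, Crabp1, Crabp2 and Rarb kept their sign under the 5 other scales and scalings. They ran from 1.41 to 1.67 for Aldh1a1, 0.55 to 0.99 for Aldh1a2 and -1.17 to -0.71 for Cyp26b1. The kept signs are no check of the differences, because a changed pseudocount cannot reverse a sign. The scalings moved the median of all genes past the limit only from 0.004 to between -0.026 and 0.002. The smallest of the listed differences, 0.063 for Crabp2, is larger than that shift. Since depth is unknown, no counting error can be given for the genes near 1 FPKM.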
